A study of Mus musculus with 28 samples.

Results

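The 7 genes described here carry the MHC class II pathway of antigen presentation: H2-Aa, H2-Ab1 and H2-Eb1 (chains of the classical class II molecules), Cd74 (the invariant chain), H2-DMa and H2-DMb1 (the peptide exchange factor H2-DM) and Ciita (the class II transactivator). They were chosen by name, with earlier results of these data known, from the 54532 genes of the count table, and all 7 were found there. Bulk RNA sequencing had been done on 28 cultures of mouse bone marrow-derived macrophages (BMDMs), macrophages grown from bone marrow cells with the growth factor M-CSF, to ask how von Willebrand factor (VWF), a plasma protein of hemostasis, changes their transcripts. At 3.5 h there were 5 control, 5 VWF and 4 LPS cultures, and at 16 h again 5, 5 and 4. Control cultures received PBS, VWF cultures plasma-derived VWF at 10 µg/ml, and LPS cultures lipopolysaccharide, a bacterial cell wall component, at 100 ng/ml. All cultures, controls included, were plated at the same density in medium with 1 mM CaCl2, and the methods give adult C57/B6JB mice as the source of the marrow. The labels name no altered allele. The labels call the cultures biological replicates, but how many mice stood behind them is not given in the sources used here, so p-values measure the spread between cultures.

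Class II molecules are pairs of an alpha and a beta chain that show peptides from endocytosed proteins to CD4+ T cells. H2-Aa and H2-Ab1 form I-A, and H2-Eb1 is the beta chain of I-E. Cd74 fills the peptide groove of new class II molecules and steers them to endosomes, where proteases cut it down and H2-DM exchanges the last fragment for an antigenic peptide. Ciita does not bind DNA itself but is recruited by RFX, CREB and NF-Y proteins on the X and Y boxes of class II promoters, and in macrophages it is known to be induced by interferon-gamma, with IRF1 among its activators.

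Between 41131209 and 77699206 counts per culture were assigned to genes. Levels are given as CPM, counts relative to the library total with TMM factors, which centre most genes on no change, and levels of different genes were compared only as CPM per kb of exon. All 9 macrophage markers were over 1 CPM in every group. Their summed level was 19130.0 to 26340.0 CPM with VWF at 16 h and 6168 to 17440.0 CPM in the other groups. The 12 dendritic cell markers summed to 18.9 to 23.5 CPM in controls, 26.9 to 43.7 CPM with VWF and 53.5 to 66.1 CPM with LPS at 3.5 h, and to 15.8 to 35.4, 10.4 to 16.8 and 26.2 to 53.5 CPM at 16 h. Of these markers 2, 4 and 5 were over 1 CPM at 3.5 h and 2, 3 and 6 at 16 h. The 9 B cell markers summed to 2.82 to 6.40 CPM with LPS at 16 h, below all 16 h controls (12.8 to 25.6 CPM), and to 8.78 to 27.7 CPM in the other groups. In each group 2 or 3 of them were over 1 CPM. The 10 T and NK cell markers summed to 34.4 to 60.2 CPM with LPS at 3.5 h and to 2.87 to 10.1 CPM elsewhere, with 1 or 2 of them over 1 CPM in each group. The 6 fibroblast and stromal markers summed to 22.5 to 434 CPM and the 8 neutrophil markers to 4.30 to 35.5 CPM, with ranges that overlapped between treatments at each time. The part of other cells in the class II values was not tested, and in bulk RNA fewer cells of a type and less RNA per cell cannot be told apart. The cultures control 16 h replicate 5 and LPS 16 h replicate 4 stood apart from the others of their groups (SD of log2 differences over 8867 genes 1.03 and 0.803, against 0.185 to 0.486 for the other 26 cultures), so calls at 16 h are also given without them.

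H2-Aa, H2-Ab1, H2-Eb1, H2-DMa and H2-DMb1 are protein-coding genes that lie together on chromosome 17 (GRCm38), and Ciita lies on chromosome 16. H2-Aa runs from 34282744 to 34287823 on the minus strand. H2-Ab1 (34257689 to 34269419), H2-Eb1 (34305867 to 34316674), H2-DMa (34119541 to 34139101) and H2-DMb1 (34153072 to 34160230) are on the plus strand, as is Ciita (10480059 to 10528418). No exon base of H2-Aa, H2-Ab1 or H2-Eb1 overlapped another gene, and none of their 100-base windows occurred in other transcripts. Of H2-DMa, 10.4% of exon bases overlapped Brd2 on the opposite strand, and of Ciita 3.45% overlapped Dexi. In H2-DMb1, 11.3% of 100-base windows were shared with its paralog H2-DMb2. The strand setting of the counting is not given in the sources used here, so reads in these stretches cannot be told apart.

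The promoters of H2-Aa, H2-Eb1 and H2-DMb1 are shown because the X and Y boxes that recruit Ciita lie there. Of the 7 genes, H2-Aa, H2-Eb1, H2-DMa and H2-DMb1 matched the RefSeq promoter table (GRCm38.p6); H2-Ab1, Cd74 and Ciita did not. Each line holds the 250 bases before the start, 5′ to 3′ on the gene's strand, and capitals mark an X box core (GNAAC) followed at 15 to 30 bases by a Y box (ATTGG).
H2-Aa (chr17:34287824-34288073, minus strand): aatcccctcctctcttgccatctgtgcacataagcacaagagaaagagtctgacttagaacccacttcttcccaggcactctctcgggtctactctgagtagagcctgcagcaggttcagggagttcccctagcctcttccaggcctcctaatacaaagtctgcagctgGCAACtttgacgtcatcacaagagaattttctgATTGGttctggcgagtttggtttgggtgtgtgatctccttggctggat
H2-Eb1 (chr17:34305617-34305866, plus strand): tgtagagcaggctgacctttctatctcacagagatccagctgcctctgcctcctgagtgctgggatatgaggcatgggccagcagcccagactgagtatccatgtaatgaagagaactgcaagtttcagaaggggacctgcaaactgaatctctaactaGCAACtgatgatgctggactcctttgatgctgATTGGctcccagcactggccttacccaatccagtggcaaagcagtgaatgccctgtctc
H2-DMb1 (chr17:34152941-34153190, plus strand): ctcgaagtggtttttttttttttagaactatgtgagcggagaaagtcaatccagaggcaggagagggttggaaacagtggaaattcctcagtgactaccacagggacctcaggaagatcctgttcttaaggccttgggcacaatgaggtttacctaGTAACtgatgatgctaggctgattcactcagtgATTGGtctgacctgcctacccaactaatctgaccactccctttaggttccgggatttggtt

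In these windows the X box core began 81, 91 and 94 bases before the start and the Y box 48, 59 and 61, with 28, 27 and 28 bases between them. H2-Oa, H2-Ob and H2-Eb2, class II genes outside the 7, also held the pair. The windows of the RefSeq starts of H2-DMa did not hold it, nor did the window of H2-DMb2, the paralog of H2-DMb1. The H2-DMa windows began at 34122582 and 34125268, inside the span of the gene given above. Other possible starts of H2-DMa were not read, so whether it has the pair elsewhere was not tested. Of 32851 promoter windows of this length, 2.35% held the pair, while 79.6% held GNAAC and 33.8% ATTGG, on either strand and counting overlaps. The letters of the core were set after these windows had been read, since a longer core missed H2-Aa, so the matches are a description.

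H2-Ab1, the beta chain of I-A, rose with VWF at both times. At 3.5 h H2-Ab1 stood at 26.6, 32.3, 42.0, 48.0 and 34.0 CPM in controls and at 45.0, 59.5, 94.7, 109 and 62.1 CPM with VWF. At 16 h it stood at 22.4, 19.2, 19.3, 33.2 and 22.7 CPM in controls and at 60.6, 68.8, 66.4, 101 and 54.4 CPM with VWF. At 3.5 h 1 of the 5 VWF cultures lay below the highest control, and at 16 h every VWF culture lay above every control, as for 12.8% of all genes tested. The log2 fold change was 1.02 ± 0.24 (SE, adjusted p = 0.00428, edgeR with Benjamini-Hochberg adjustment) at 3.5 h and 1.57 ± 0.20 (adjusted p = 1.84e-04) at 16 h. A gene was called when its adjusted p was under 0.05 and its log2 fold change passed 1 in either direction. At 3.5 h H2-Ab1 was the 1 called of 6 class II genes tested, where 14.7% of 8200 genes were called (9.10% higher), and at 16 h H2-Ab1 and H2-Eb1 were called, where 8.71% of 7798 genes were (4.55% higher). The call at 3.5 h was lost at the fold threshold without control replicate 1 (0.93), 2 (0.99) or 5 (0.9992) or VWF replicate 3 (0.94) or 4 (0.86), with an adjusted p of at most 0.0127, and with library size scaling (0.79). Without control replicate 5 the value at 16 h was 1.56.

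H2-Aa, the alpha partner of H2-Ab1, did not pass the unpaired main test with VWF at 3.5 h and was higher at 16 h by less than the fold threshold. At 3.5 h H2-Aa was at 25.8, 32.4, 40.2, 51.8 and 32.6 CPM in controls and at 27.5, 39.5, 57.9, 70.4 and 38.9 CPM with VWF, and the groups overlapped (log2 fold change 0.36 ± 0.25, adjusted p = 0.279 by edgeR, 95% interval -0.18 to 0.91). Each of these VWF cultures was above the control of the same replicate number, which the main test did not use. At 16 h it was at 16.1, 16.1, 16.8, 26.1 and 13.1 CPM in controls and at 29.9, 31.0, 29.4, 49.9 and 29.1 CPM with VWF. Every VWF culture at 16 h was above every control, as for 12.8% of all genes tested. The log2 fold change was 0.92 ± 0.21 (adjusted p = 0.00834). Without control replicate 4 it was 1.12 and called, and without control replicate 5 it was 0.83 with an adjusted p of 0.00739.

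H2-Eb1, the beta chain of I-E, was higher with VWF than in controls at 16 h, where both groups had lower means than at 3.5 h. At 3.5 h H2-Eb1 was at 13.8, 18.7, 26.2, 30.1 and 20.1 CPM in controls and at 19.0, 26.2, 34.8, 41.0 and 24.1 CPM with VWF (log2 fold change 0.42 ± 0.24, adjusted p = 0.184 by edgeR). Here too each VWF culture was above the control of the same replicate number, which the main test did not use. At 16 h it was at 5.81, 4.43, 5.47, 11.3 and 7.12 CPM in controls and at 13.0, 15.3, 15.1, 24.8 and 13.0 CPM with VWF. The groups overlapped at 3.5 h and were separate at 16 h, as for 12.8% of all genes tested. At 16 h the log2 fold change was 1.23 ± 0.27 (adjusted p = 0.00663 by edgeR) and 1.24 without control replicate 5. Without VWF replicate 4 it was 1.05, just over the fold threshold, and leaving out 1 culture took the adjusted p up to 0.0199. H2-Ea, the gene of its alpha partner, is annotated as a polymorphic pseudogene and had 0 counts in 26 cultures and 1 and 5 counts in the other 2, both controls at 16 h. The H2-Eb1 transcript is therefore no measure of I-E molecules in these cultures.

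With LPS H2-Ab1 was higher than in controls at 3.5 h, and all 3 classical genes were at 16 h. At 3.5 h the LPS cultures held 42.3, 69.4, 90.4 and 102 CPM of H2-Ab1, 33.2, 59.1, 71.4 and 76.7 CPM of H2-Aa and 18.9, 39.3, 42.8 and 48.9 CPM of H2-Eb1. For each gene LPS replicate 1 was the lowest LPS culture and lay within the range of the controls. The log2 fold changes at 3.5 h were 1.06 ± 0.24 for H2-Ab1 (adjusted p = 0.00244 by edgeR), 0.73 ± 0.25 for H2-Aa (adjusted p = 0.0226, and up to 0.0783 with 1 culture left out) and 0.79 ± 0.27 for H2-Eb1 (adjusted p = 0.0249, and up to 0.0851). With library size scaling H2-Aa was at 0.17 (adjusted p = 0.537 by edgeR) and H2-Eb1 at 0.24 (adjusted p = 0.437), and H2-Ab1 had an adjusted p of 0.0679. With no filter the adjusted p was 0.0625 for H2-Aa and 0.0823 for H2-Eb1. H2-Ab1 was the 1 gene called of 6 tested, where 24.5% of 8190 genes were called (12.8% higher). Its call was lost without control replicate 1 (0.97), LPS replicate 3 (0.97) or LPS replicate 4 (0.89) and with library size scaling (0.51), and 3 genes were called without LPS replicate 1, H2-Eb1 (1.02) and Cd74 among them.

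At 16 h the LPS cultures held 104, 115, 98.3 and 142 CPM of H2-Ab1, 57.5, 60.4, 51.6 and 72.0 CPM of H2-Aa and 49.7, 56.2, 42.1 and 47.8 CPM of H2-Eb1. All of these values lay above all controls, as for 23.8% of genes. H2-Eb1 rose by a log2 fold change of 2.87 ± 0.25 (adjusted p = 1.23e-05 by edgeR), H2-Ab1 by 2.32 ± 0.18 (adjusted p = 5.76e-06) and H2-Aa by 1.80 ± 0.20 (adjusted p = 4.43e-05). These were the 3 called of 6 tested, against 27.6% of 7994 genes (15.3% higher). Without control replicate 5 Cd74 was called as well, 4 in all, and the log2 fold changes of the 3 genes were 2.88, 2.31 and 1.71, and without LPS replicate 4 they were 2.87, 2.19 and 1.70.

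**Figure D1:**
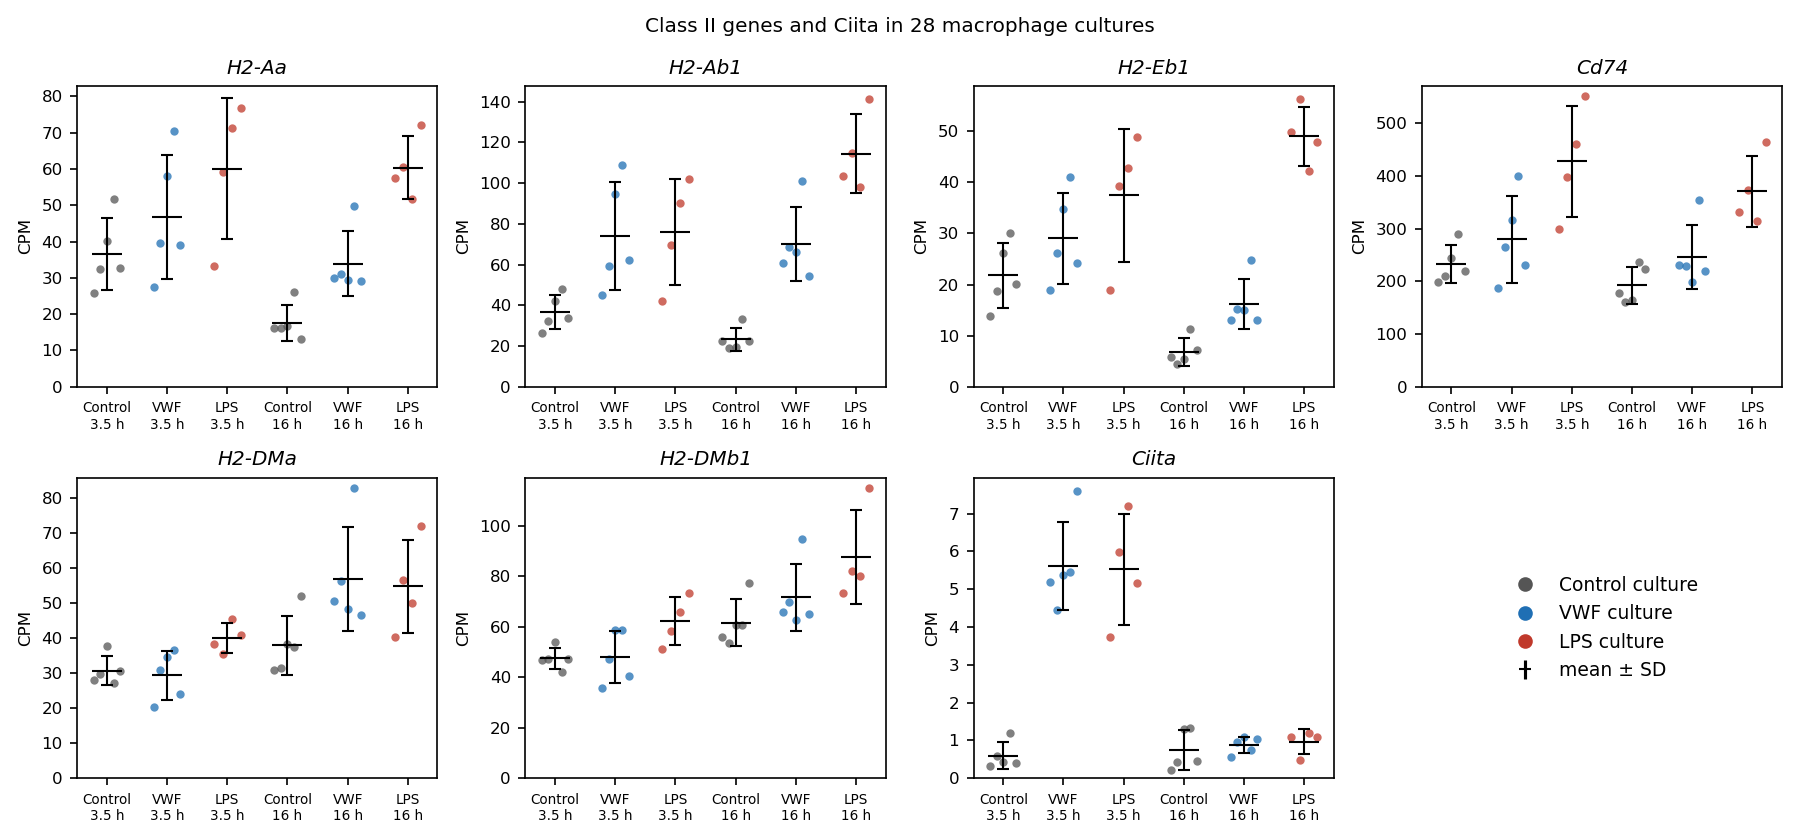
Level in CPM (y axis, from 0) of the 7 genes in each of 28 cultures, by group; points are cultures and black bars the mean ± SD. H2-Eb1 in LPS cultures at 16 h (42.1 to 56.2 CPM) lies apart from VWF cultures (13.0 to 24.8 CPM), and Ciita is high in the treated cultures at 3.5 h alone.

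Over time H2-Eb1 and H2-Aa fell in control cultures. H2-Eb1 went from 21.8 ± 6.42 CPM (SD, n = 5) at 3.5 h to 6.83 ± 2.70 CPM at 16 h, a log2 fold change of -1.67 ± 0.28 (adjusted p = 0.00119 by edgeR). H2-Aa went from 36.6 ± 9.92 to 17.6 ± 4.95 CPM (log2 fold change -1.05 ± 0.22, adjusted p = 0.00366), and H2-Ab1 was at 36.6 ± 8.43 and 23.4 ± 5.74 CPM (log2 fold change -0.64 ± 0.19, adjusted p = 0.0228, and up to 0.0574 with 1 culture left out), under the fold threshold. These made 2 of 6 called, where 9.08% of 8333 genes were called (5.09% lower). The call of H2-Aa was lost without control 3.5 h replicate 4 (-0.90) or control 16 h replicate 5 (-0.96).

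In treated cultures none of the 6 tested genes was called over time, where 21.4% of 7927 genes (VWF) and 28.1% of 6987 (LPS) were. With VWF, H2-Ab1 was at 74.1 ± 26.7 and 70.3 ± 18.2 CPM (log2 fold change -0.067 ± 0.24, adjusted p = 0.815 by edgeR, 0.031 with library size scaling). H2-Aa changed by -0.46 ± 0.24 on the log2 scale (adjusted p = 0.113) and H2-Eb1 by -0.83 ± 0.23 (adjusted p = 0.00725, and -1.03 and called without VWF 16 h replicate 4). With LPS, H2-Ab1 was at 76.0 ± 26.2 and 115 ± 19.3 CPM (n = 4, log2 fold change 0.63 ± 0.25, adjusted p = 0.0554), H2-Eb1 differed by 0.42 ± 0.25 (adjusted p = 0.180) and H2-Aa by 0.040 ± 0.24 (adjusted p = 0.897, -0.031 with library size scaling).

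Whether the treatment effect itself differed between the times was tested as an interaction. The LPS effect was larger at 16 h than at 3.5 h for H2-Eb1 by 2.10 ± 0.41 on the log2 scale (adjusted p = 4.50e-04 by edgeR), for H2-Ab1 by 1.28 ± 0.33 (adjusted p = 0.00458) and for H2-Aa by 1.10 ± 0.35 (adjusted p = 0.0152), 3 of 6 called against 26.3% of 8748 genes (13.5% higher). For H2-Aa the call was lost without control 3.5 h replicate 4 (0.93), LPS 3.5 h replicate 1 (0.90) or LPS 16 h replicate 4 (0.99). The change of the VWF effect was 0.85 ± 0.38 for H2-Eb1 (adjusted p = 0.0966), 0.58 ± 0.33 for H2-Ab1 (adjusted p = 0.193) and 0.60 ± 0.35 for H2-Aa (adjusted p = 0.211), and none of 6 was called, against 13.5% of 8660 genes. Without control 16 h replicate 4 the value of H2-Eb1 was 1.11 and called (adjusted p = 0.0201).

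Set against each other directly, VWF and LPS cultures did not differ beyond their spread in the classical genes at 3.5 h, and H2-Eb1 was called at 16 h. At 3.5 h the log2 fold change of VWF against LPS was -0.010 ± 0.29 for H2-Ab1 (95% interval -0.65 to 0.63, 0.28 with library size scaling), -0.33 ± 0.29 for H2-Aa and -0.34 ± 0.28 for H2-Eb1, with adjusted p-values of 0.978, 0.346 and 0.310 by edgeR. None of 6 genes was called there, against 11.4% of 7500. At 16 h the log2 fold change of VWF against LPS was -1.59 ± 0.19 for H2-Eb1 (adjusted p = 6.06e-05), -0.82 ± 0.18 for H2-Aa (adjusted p = 0.00237) and -0.69 ± 0.18 for H2-Ab1 (adjusted p = 0.00746, and 0.161 with library size scaling). H2-Eb1 was the 1 called of 6, where 25.5% of 7574 genes were called (14.5% lower). H2-Eb1 and H2-Aa were lower in every VWF culture than in every LPS culture, as for 26.3% of genes, whereas the ranges of H2-Ab1 overlapped. Without LPS replicate 4 the log2 fold changes at 16 h were -1.60, -0.73 and -0.58, with the same 1 call. The difference between VWF and LPS itself changed between the times for H2-Eb1 (-1.26 ± 0.36, adjusted p = 0.00719), the 1 called of 6, against 25.0% of 8217 genes.

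**Figure D2:**
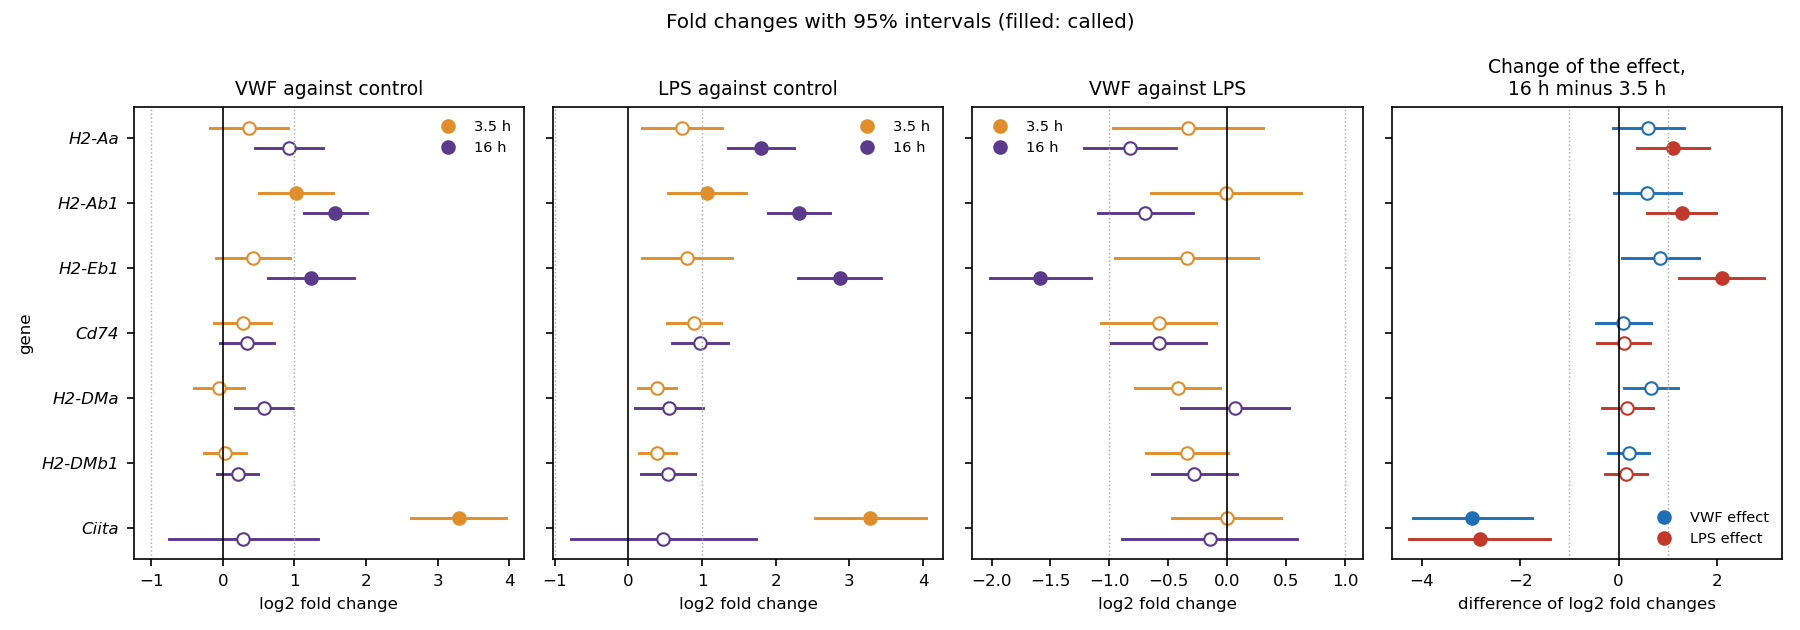
Log2 fold changes (x axis, points) with 95% intervals (lines) of the 7 genes (y axis) in 3 comparisons at both times and, at the right, the change of the VWF and LPS effects from 3.5 to 16 h; filled points were called and dotted lines mark a log2 value of 1 in either direction. H2-Eb1 with LPS at 16 h is at 2.87, and Ciita, taken from the fit with the lower expression filter, is at 3.29 with VWF and 3.28 with LPS at 3.5 h.

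The classical transcripts did not keep fixed proportions. Within a culture the ratio of H2-Ab1 to H2-Aa, each as CPM per kb, does not depend on scaling. At 3.5 h it was 1.49 ± 0.0720 (SD, n = 5, range 1.37 to 1.54) in controls, 2.34 ± 0.0848 (2.23 to 2.42) with VWF and 1.87 ± 0.0947 (n = 4, 1.74 to 1.97) with LPS, and the 3 ranges did not overlap. At 16 h the ratio was 1.70 to 2.57 in controls, 2.76 to 3.34 with VWF and 2.67 to 2.91 with LPS, so treated cultures again lay above controls while VWF and LPS overlapped. The ratio of H2-Eb1 to H2-Ab1 at 16 h was 0.285 to 0.324 with VWF and 0.446 to 0.648 with LPS, without overlap. Controls at 16 h ran from 0.304 to 0.451 and overlapped both. These ratios are a description, with no test.

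**Figure D3:**
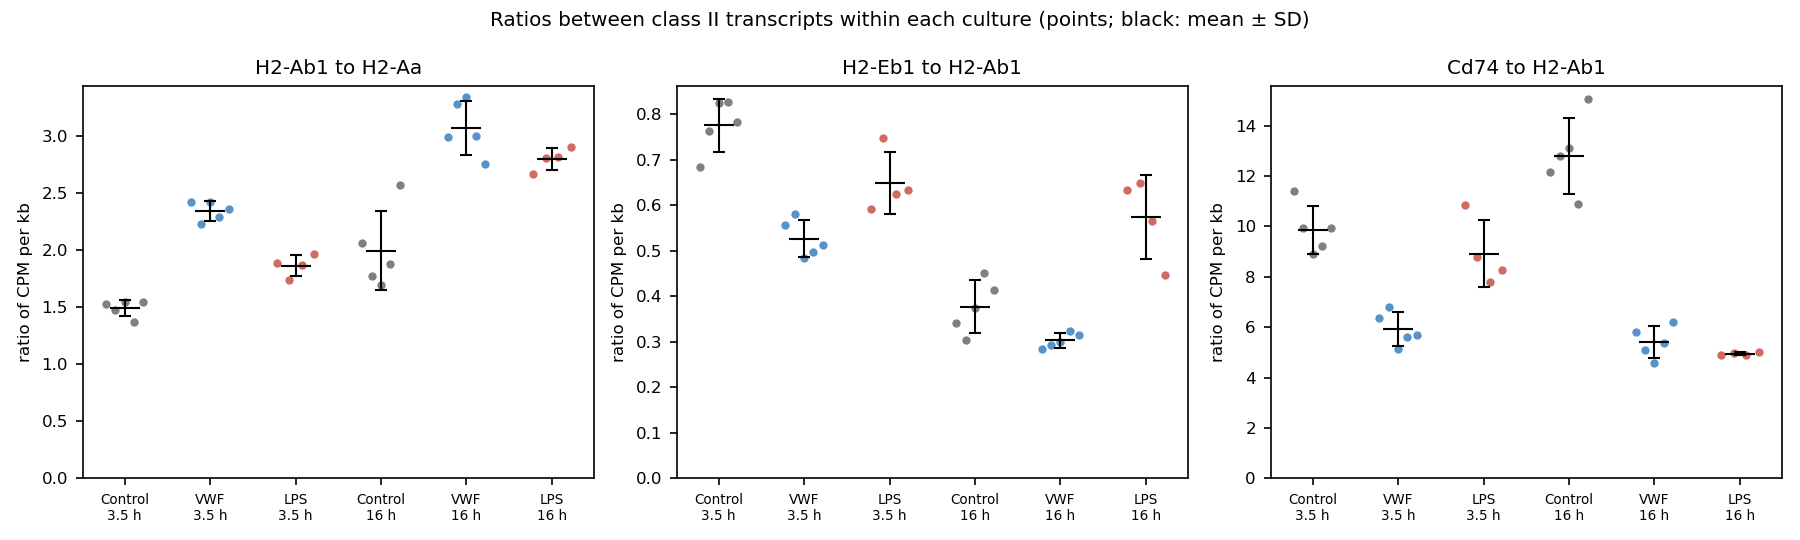
Ratio of CPM per kb (y axis, from 0) between pairs of class II transcripts within each culture (points), by group, with the mean ± SD in black. H2-Ab1 to H2-Aa separates controls (1.37 to 1.54), LPS (1.74 to 1.97) and VWF (2.23 to 2.42) at 3.5 h. H2-Eb1 to H2-Ab1 separates VWF from LPS at 16 h, where controls overlap both.

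Cd74, the invariant chain, had the highest level per kb of the 7 genes in every group, from 115 ± 20.8 CPM per kb (SD) in controls at 16 h to 255 ± 63.1 with LPS at 3.5 h, where group means of H2-Ab1 ran from 9.11 to 44.6 CPM per kb. At 3.5 h Cd74 was at 198, 209.7, 244, 289 and 221 CPM in controls, at 187, 265, 317, 401 and 231 CPM with VWF and at 299, 399, 461 and 551 CPM with LPS. LPS cultures all lay above controls, as for 26.6% of genes, whereas VWF cultures spread over both. Fold changes on the log2 scale were 0.28 ± 0.18 with VWF (adjusted p = 0.257 by edgeR) and 0.89 ± 0.17 with LPS (adjusted p = 7.30e-04), and the latter was 1.03 and called without LPS replicate 1. With library size scaling the latter was 0.34 (adjusted p = 0.0774).

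At 16 h Cd74 was at 178, 161, 166, 237 and 224 CPM in controls, at 231, 228, 199.6, 354 and 221 CPM with VWF and at 331, 374, 315 and 465 CPM with LPS. Again LPS cultures were above all controls and VWF cultures overlapped them. Fold changes on the log2 scale were 0.34 ± 0.17 with VWF (adjusted p = 0.177 by edgeR) and 0.97 ± 0.17 with LPS (adjusted p = 8.10e-04), just under the fold threshold. The value with LPS passed the threshold without control replicate 4 (1.05) or 5 (1.03) or LPS replicate 1 (1.03) or 3 (1.04), and was 0.84 without LPS replicate 4. With all cultures it also passed with filterByExpr (1.05) and with no filter (1.06). VWF against LPS gave -0.58 ± 0.22 at 3.5 h and -0.58 ± 0.18 at 16 h (adjusted p = 0.0475 and 0.0177). With 1 culture left out the adjusted p of the former reached 0.147, and with library size scaling the adjusted p-values were 0.225 and 0.436. The ratio of Cd74 to H2-Ab1 was 8.89 to 11.4 in controls, 5.12 to 6.81 with VWF and 7.80 to 10.8 with LPS at 3.5 h, and 10.9 to 15.1, 4.60 to 6.21 and 4.89 to 5.03 at 16 h.

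H2-DMa and H2-DMb1, the chains of the peptide exchange factor, were not called in any treatment comparison. At 3.5 h H2-DMa was at 27.2 to 37.7 CPM in controls, 20.3 to 36.7 CPM with VWF and 35.5 to 45.4 CPM with LPS, and H2-DMb1 at 42.1 to 53.9, 35.9 to 58.6 and 51.3 to 73.1 CPM. With VWF the log2 fold change was -0.054 ± 0.16 for H2-DMa (adjusted p = 0.831 by edgeR) and 0.027 ± 0.13 for H2-DMb1 (adjusted p = 0.904, -0.20 with library size scaling). With LPS it was 0.39 ± 0.12 (adjusted p = 0.0113) and 0.40 ± 0.11 (adjusted p = 0.0104), and -0.14 and -0.14 when scaled by library size alone. That scaling moved the median of all tested genes to -0.55 for LPS and -0.22 for VWF at 3.5 h, and to -0.59 and -0.086 at 16 h, so relative to the median gene both stayed higher with LPS.

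At 16 h H2-DMa was at 30.8, 31.4, 38.2, 37.3 and 51.8 CPM in controls, at 50.6, 56.3, 48.3, 82.6 and 46.6 CPM with VWF and at 40.4, 56.6, 49.9 and 71.9 CPM with LPS. Control replicate 5 lay within the range of both treated groups. The log2 fold change was 0.57 ± 0.18 with VWF (adjusted p = 0.0399 by edgeR, and 0.0803 with the replicate block) and 0.55 ± 0.20 with LPS (adjusted p = 0.0445, log2 fold change -2.03e-04 with library size scaling). With VWF it was 0.70 without control replicate 5 (adjusted p = 0.00577) and 0.41 without VWF replicate 4 (adjusted p = 0.0643). With LPS it was 0.69 without control replicate 5 (adjusted p = 0.00842) and 0.39 without LPS replicate 4 (adjusted p = 0.117), and leaving out 1 culture took the adjusted p up to 0.0922 with VWF and 0.117 with LPS. H2-DMb1 was at 53.5 to 77.3 CPM in controls, 62.7 to 94.9 CPM with VWF (0.20 ± 0.13, adjusted p = 0.300) and 73.3 to 115 CPM with LPS (0.53 ± 0.16, adjusted p = 0.0195, -0.026 with library size scaling, and 0.37 without LPS replicate 4).

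Both H2-DM genes had higher means at 16 h than at 3.5 h in each group. With VWF the log2 fold change was 0.96 ± 0.19 for H2-DMa (adjusted p = 9.65e-04 by edgeR) and 0.58 ± 0.15 for H2-DMb1 (adjusted p = 0.00613), every culture at 16 h being above every culture at 3.5 h, as for 26.8% of genes. With LPS the values were 0.48 ± 0.17 (adjusted p = 0.0393, and up to 0.102 with 1 culture left out) and 0.53 ± 0.17 (adjusted p = 0.0227, and up to 0.0664), and in controls 0.31 ± 0.15 (adjusted p = 0.125) and 0.38 ± 0.11 (adjusted p = 0.0208, and 0.0588 with filterByExpr). H2-DMa with VWF crossed the fold threshold without VWF 3.5 h replicate 3 (1.04) or 4 (1.05), without VWF 16 h replicate 1 (1.02), 3 (1.01) or 5 (1.05), and with library size scaling (1.06). Brd2, whose exons overlap those of H2-DMa, changed by 0.68 ± 0.11 with VWF and 1.65 ± 0.12 with LPS at 3.5 h and by 0.15 ± 0.10 and 1.51 ± 0.14 at 16 h, and its part in the H2-DMa counts was not tested.

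Ciita, the transactivator, rose with VWF and LPS at 3.5 h and did not differ from controls beyond the spread at 16 h. Its transcript was scarce and reached at most 2.44 TPM (a level corrected for exon length and library size), under the 10 TPM needed for the main test, so its fold changes come from a fit with edgeR's own, lower filter (filterByExpr). At 3.5 h Ciita was at 0.315, 0.601, 0.444, 1.21 and 0.416 CPM in controls (18 to 91 counts), at 5.20, 4.44, 5.38, 5.46 and 7.59 CPM with VWF and at 3.74, 5.98, 7.21 and 5.16 CPM with LPS. Every treated culture lay above every control, as for 13.9% (VWF) and 20.6% (LPS) of genes. The log2 fold change was 3.29 ± 0.31 with VWF (adjusted p = 4.71e-06 by edgeR) and 3.28 ± 0.35 with LPS (adjusted p = 7.16e-06), in fits where 14.8% and 27.5% of genes were called (8.54% and 12.8% higher). VWF and LPS did not differ in it beyond their spread (-0.0050 ± 0.21, adjusted p = 0.987, 95% interval -0.46 to 0.45, 0.35 with library size scaling).

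At 16 h Ciita was at 0.215, 0.444, 1.31, 1.33 and 0.464 CPM in controls (16 to 82 counts), at 0.565, 0.969, 1.09, 0.747 and 1.04 CPM with VWF and at 1.10, 0.482, 1.20 and 1.09 CPM with LPS. The controls spread over the whole range of the treated cultures, also without control replicate 5. Its log2 fold change was 0.29 ± 0.47 with VWF (adjusted p = 0.750 by edgeR, 95% interval -0.76 to 1.33) and 0.47 ± 0.56 with LPS (adjusted p = 0.526, 95% interval -0.78 to 1.73, -0.17 with library size scaling). From 3.5 to 16 h Ciita changed by -2.69 ± 0.21 on the log2 scale with VWF (adjusted p = 6.70e-07), by -2.51 ± 0.32 with LPS (adjusted p = 1.69e-04) and by 0.27 ± 0.54 in controls (adjusted p = 0.724), in fits that called 24.4%, 29.9% and 10.9% of genes. The VWF effect at 16 h differed from that at 3.5 h by -2.98 ± 0.58 (adjusted p = 6.32e-04) and the LPS effect by -2.82 ± 0.68 (adjusted p = 0.00319), against 13.0% and 24.6% called. Dexi, which overlaps Ciita on the other strand, was at 9.80 ± 0.777 CPM in controls, 14.6 ± 1.89 with VWF and 14.9 ± 0.699 with LPS at 3.5 h, and its part in the Ciita counts was not tested.

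Group means put the genes in different orders. For H2-Aa and H2-Eb1 the order from low to high was control at 16 h, VWF at 16 h, control, VWF and LPS at 3.5 h, and LPS at 16 h, and of these neighbours only control and VWF at 16 h did not overlap. For H2-Ab1 both control groups came first, then VWF at 16 h, VWF at 3.5 h, LPS at 3.5 h and LPS at 16 h, and only control at 3.5 h and VWF at 16 h were separate neighbours. For Ciita the separate neighbours were LPS at 16 h and LPS at 3.5 h. Every pair of neighbours overlapped for Cd74, H2-DMa and H2-DMb1. Over the 28 cultures, Pearson's correlation with Ciita was 0.457 to 0.521 for H2-Aa, H2-Ab1, H2-Eb1 and Cd74, and -0.229 and -0.202 for H2-DMa and H2-DMb1, a description over cultures that share treatments and times. The genes most like the mean of the classical genes and Cd74 among 8867 were Wfdc17 (0.881), Gm14005 (0.876), Gmppb (0.875), Igsf8 (0.871), Ccl12 (0.867), Rab20 (0.863), Slc11a2 (0.860) and Tmem50b (0.858). Those most like Ciita were Rassf4 (0.940), Notch2 (0.936), Slc44a1 (0.934), Gpr132 (0.931) and Arhgef3 (0.925).

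In the lists that follow a gene was tested when it reached 10 TPM in 1 culture of the comparison. A gene low in controls could so enter through treated cultures alone. Of 11 genes of signals that lead to Ciita, 10 were tested. With VWF at 3.5 h 2 rose, the kinase Jak2 (3.16 ± 0.15 on the log2 scale) and the transcription factor Irf1 (3.00 ± 0.21), and Tlr4, the LPS receptor, fell (-1.08 ± 0.17), with a list median of 0.70 against -0.0088 for all genes, of which 14.7% were called (9.10% higher). With LPS at 3.5 h 5 rose and none fell (median 1.01 against -0.017), among them Irf1 (5.06 ± 0.22) and Jak2 (3.48 ± 0.17), against 24.5% of all genes called (12.8% higher). With VWF at 16 h the list median was 0.062 against -0.030 for all genes, and Irf1 was at 0.56 ± 0.11, under the fold threshold. With LPS at 16 h 4 were called higher, among them Irf1 (3.21 ± 0.11) and Jak2 (2.98 ± 0.28), and Ifngr1, a chain of the interferon-gamma receptor, was lower (-1.51 ± 0.17), against 27.6% of all genes called (15.3% higher). Ifng itself had 0 to 1 counts in every control and VWF culture, 8 to 21 in LPS cultures at 3.5 h and 0 to 23 at 16 h.

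Between the treatments, 3 of these 10 genes were lower with VWF than with LPS at 3.5 h, Irf8 (-3.26 ± 0.15), Irf1 (-2.03 ± 0.12) and Irf2 (-1.40 ± 0.14), and none was higher, where 11.4% of all genes were called (6.71% lower). At 16 h 3 were lower with VWF, Irf1 (-2.61 ± 0.088), Jak2 (-2.30 ± 0.21) and Irf2 (-1.18 ± 0.10), and Ifngr1 was higher (1.47 ± 0.15), where 25.5% of all genes were called (14.5% lower). The VWF effect on Jak2 and Irf1 changed between the times by -2.49 ± 0.28 and -2.41 ± 0.25.

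Of the 7 genes of the promoter complex, 3 to 5 reached the 10 TPM filter in comparisons with controls, and of these none was called with VWF. Nfya, a subunit of NF-Y, fell with LPS at 3.5 h (-1.20 ± 0.099), the 1 called of 4, against 24.5% of all genes. Rfx5, the DNA-binding subunit of RFX, was too low for the main test. With the lower filter Rfx5 passed the call rule with VWF at 3.5 h and with LPS at 16 h, and Creb1 with VWF at 3.5 h. Rfx5 was at 1.26 ± 0.19 with VWF at 3.5 h (adjusted p = 1.97e-04 by edgeR, 5.02 ± 1.58 CPM in controls and 11.4 ± 2.07 with VWF) and 0.34 ± 0.27 at 16 h (adjusted p = 0.452), and with LPS at 0.95 ± 0.22 (adjusted p = 0.00263) and 1.15 ± 0.35 (adjusted p = 0.0216). None of 5 other class II chains reached the main filter. H2-Oa, the alpha chain of the H2-DM inhibitor H2-DO, was at 0.254 ± 0.205 CPM in controls, 0.302 ± 0.0630 with VWF and 1.76 ± 0.218 with LPS at 16 h (LPS against control 2.91 ± 0.57, adjusted p = 0.00229, lower filter). BC051537 on the other strand overlapped 22.8% of its exon bases.

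Of 8 genes known to hold class II expression down, 6 were tested at 3.5 h and 5 rose with each agent. The list median was 2.94 with VWF and 5.82 with LPS, against -0.0088 and -0.017 for all genes, of which 9.10% and 12.8% were called higher. Inhibitors low in controls could pass the filter through treated cultures alone. The list was also chosen with earlier results of these data known, so its counts and medians are a description. Socs3 and Socs1, which inhibit JAK kinases, changed by 7.32 ± 0.31 and 6.03 ± 0.23 on the log2 scale with VWF and by 7.89 ± 0.36 and 8.63 ± 0.15 with LPS. Il10, an anti-inflammatory cytokine, changed by 3.79 ± 0.20 and 6.47 ± 0.18. At 16 h 1 of 4 tested rose with VWF (Socs3, 2.65 ± 0.33) and Nfil3 fell (-1.99 ± 0.14), while with LPS 4 of 6 rose, among them Socs3 (7.03 ± 0.37) and Socs1 (6.57 ± 0.25), and Ezh2 fell (-1.53 ± 0.13), where 8.71% and 27.6% of all genes were called (4.55% and 15.3% higher). Against LPS, VWF cultures were lower in 4 of 7 tested at 3.5 h, among them Il10 (-2.66 ± 0.17), Zbtb32 (-2.65 ± 0.20) and Socs1 (-2.58 ± 0.22), and higher in Prdm1, a repressor of Ciita (1.39 ± 0.14), against 11.4% of all genes called (6.71% lower). At 16 h they were lower in 4 of 6, among them Socs3 (-4.33 ± 0.23) and Socs1 (-4.11 ± 0.17), against 25.5% of all genes (14.5% lower).

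Of 11 genes that process the invariant chain and antigens, all tested, 1 rose with VWF at 3.5 h (Sppl2a, 1.11 ± 0.085, a protease that cuts the last stub of Cd74) and 1 at 16 h (Ctsh, 1.58 ± 0.16, a cathepsin), against 9.10% and 4.55% of all genes called higher, so the share at 3.5 h was that of the background. With LPS, Sppl2a rose at 3.5 h (1.39 ± 0.086), and Sppl2a (2.34 ± 0.092), Ctsz (1.32 ± 0.13), Ctsh (1.23 ± 0.14) and Lgmn (1.12 ± 0.31) rose at 16 h, 1 and 4 of 11, against 12.8% and 15.3% of all genes. Against LPS, Sppl2a was lower with VWF at 16 h (-1.35 ± 0.078), the 1 call of the list there, against 25.5% of all genes. Ctss, cathepsin S, which trims Cd74 in endosomes, was at 0.0073 ± 0.12 with VWF and 0.51 ± 0.11 with LPS at 3.5 h and at 0.46 ± 0.11 and 0.94 ± 0.13 at 16 h, under the fold threshold throughout.

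Of 9 genes of class II turnover and surface contacts, 3 of 8 tested rose with VWF and 2 of 8 with LPS at 3.5 h, where 9.10% and 12.8% of all genes were called higher. At 16 h 2 rose and 2 fell of 8 tested with VWF and of 9 with LPS, where 8.71% and 27.6% of all genes were called. Cd83, which protects class II from the ubiquitin ligase Marchf1, was at 81.7 ± 6.68 CPM in controls at 16 h, 4.61 ± 1.42 with VWF and 58.3 ± 13.4 with LPS. Its log2 fold change with VWF was 1.66 ± 0.19 at 3.5 h and -4.17 ± 0.18 at 16 h (adjusted p = 6.45e-07 by edgeR), and with LPS 1.84 ± 0.17 and -0.46 ± 0.15. Marchf1 itself rose with VWF (2.25 ± 0.20 at 3.5 h and 1.55 ± 0.18 at 16 h) and with LPS at 16 h (3.12 ± 0.21), where it was lower with VWF than with LPS (-1.52 ± 0.18). The tetraspanin Cd9 fell at 16 h (-2.42 ± 0.13 with VWF and -1.92 ± 0.12 with LPS), and Lag3, a receptor that binds class II, rose with LPS (5.78 ± 0.23 at 3.5 h and 4.51 ± 0.26 at 16 h). Against LPS, VWF cultures were lower in Lag3 at both times (-5.64 ± 0.20 and -7.72 ± 0.36) and in Cd83 at 16 h (-3.65 ± 0.23).

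Between 3.5 and 16 h, inhibitors fell in 5 of 7 tested genes with VWF, among them Socs3 (-5.55 ± 0.15 on the log2 scale) and Socs1 (-4.42 ± 0.23), and in 4 of 6 with LPS, among them Il10 (-3.01 ± 0.20) and Socs1 (-2.88 ± 0.14), where 21.4% and 28.1% of all genes were called (12.2% and 13.5% lower). Of the signals to Ciita, 4 of 10 fell with VWF, among them Jak2 (-3.51 ± 0.14) and Irf1 (-2.90 ± 0.12), and 4 of 10 with LPS, among them Irf8 (-2.41 ± 0.15) and Irf1 (-2.32 ± 0.088). Cd83 fell with VWF (-6.46 ± 0.21) and with LPS (-2.95 ± 0.16). In controls the signals gave 1 call higher (Usf1, 1.05 ± 0.27) and 1 lower (Jak2, -1.03 ± 0.23), against 9.08% of all genes called. The VWF effect on Cd83 was -5.79 ± 0.28 at 16 h relative to 3.5 h and that on Socs3 -4.64 ± 0.47, whereas the LPS effect on Cd83 changed by -2.29 ± 0.24 and that on Marchf1 by 1.56 ± 0.31.

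**Figure D4:**
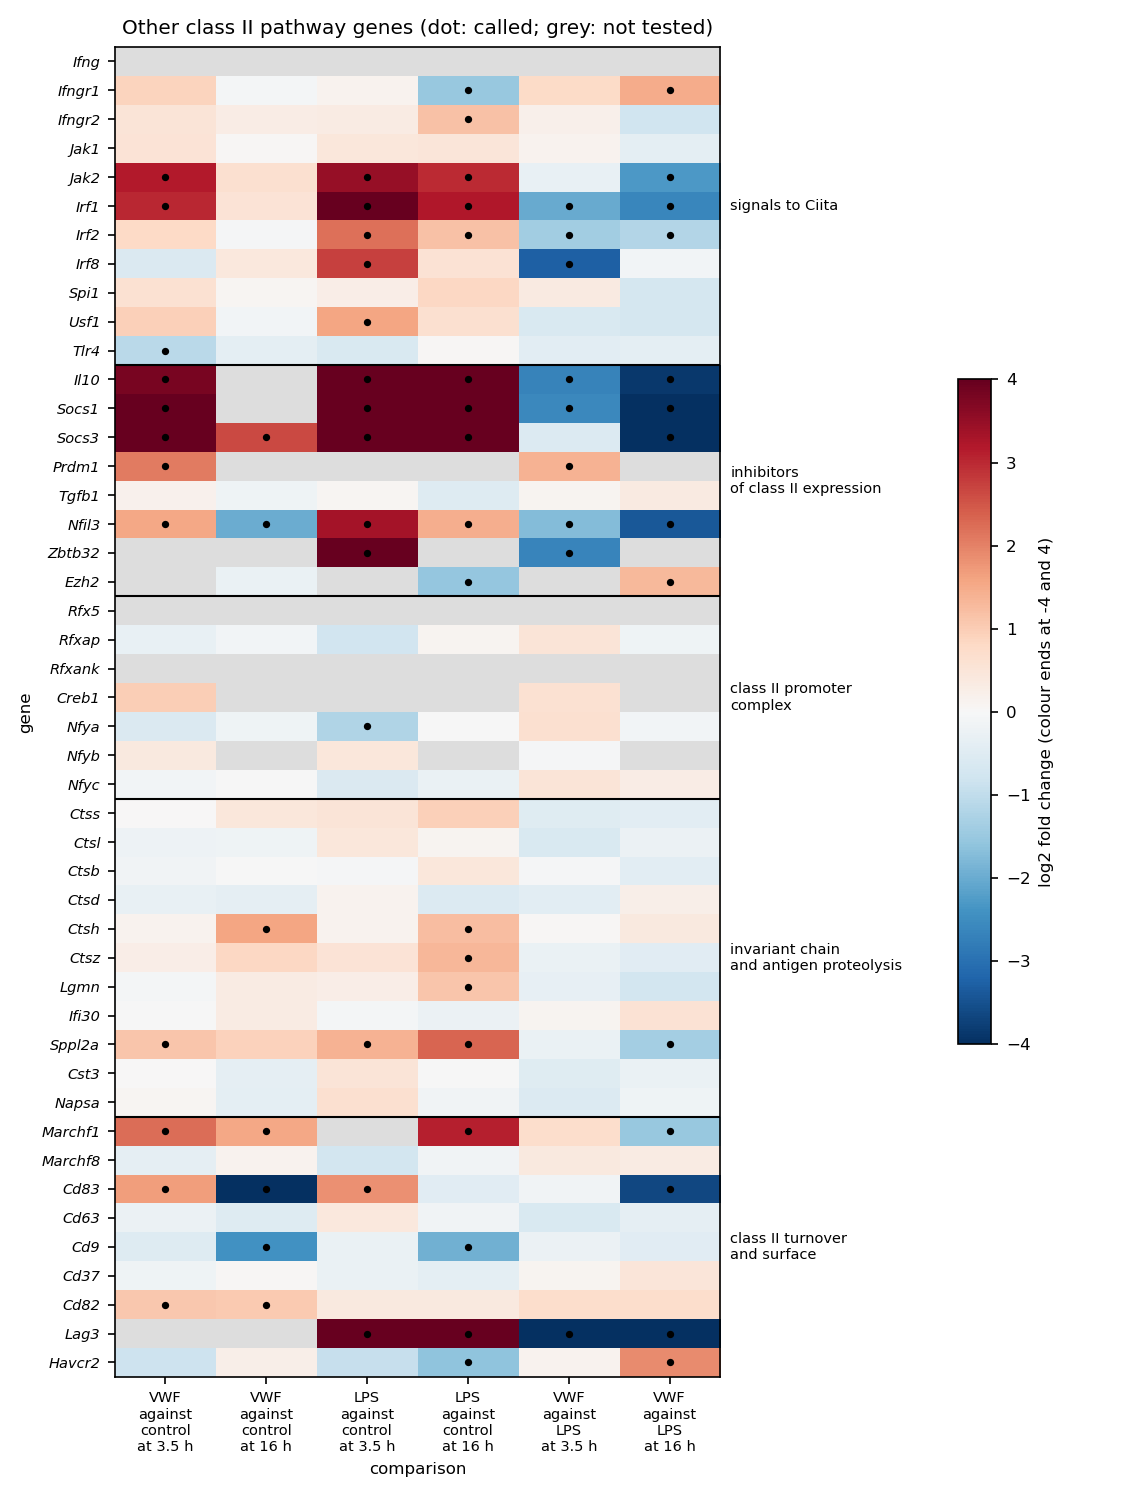
Log2 fold change (colour, which ends at -4 and 4) of other genes of the class II pathway (rows, in 5 lists) in 6 comparisons (columns); a dot marks a called gene and grey a gene under the expression filter. Irf1 is called in 3 of the 4 comparisons with controls, and Cd83 is at -4.17 with VWF and -0.46 with LPS at 16 h.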

How the data were processed

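RNA of 28 BMDM cultures was sequenced (RNeasy extraction, NovaSeq). The authors deposited 1 table of raw counts per gene for the 28 cultures, with no columns of other samples (0), and the submitters' processing notes name STAR and the GRCm38/mm10 genome. For the counting, neither strand setting nor annotation was found (not given in the sources used here). Cultures were grouped by their labels. The methods' differentiation with M-CSF applies to all groups.

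Gene lengths, positions and overlaps came from GENCODE M21, which matched 54495 of 54532 genes. Genes with at least 10 TPM in 1 culture of a comparison were tested with edgeR's quasi-likelihood test (edgeR 4.0.16, R 4.3.3) with TMM factors, each comparison fitted on its own groups, with Benjamini-Hochberg adjustment over all genes tested. Genes under that filter, Ciita among them, were tested with filterByExpr in place of it. CPM carried TMM factors over all 28 cultures. The fits were tested on simulated data. The members and the gene lists were chosen with earlier results of these data known, and 2 listed genes are not reported here. Named genes were the 7 members, the 2 called genes with the largest absolute log2 fold change in each list, 8 genes named throughout (Ifng, Irf1, Rfx5, Socs1, Il10, Ctss, Marchf1 and Cd83) and the 8 and 5 genes most like the classical genes and Ciita in log2 CPM (prior count 2). Other genes named to complete a short count, H2-Oa, H2-Ea and overlapping genes were chosen after their values were seen. Alternatives were DESeq2 1.42.0, median-of-ratios factors, library size scaling, other filters, no fold threshold, 1 fit over all groups, a replicate block and leaving out each culture, and the combinations with filterByExpr for Ciita were chosen after seeing the data. Over 8867 genes, every correlation between deviations of same-numbered cultures was over 0.1 only for VWF and LPS at 16 h (0.160 to 0.781, 4 pairs). In the other pairs of groups the median for same-numbered cultures ran from -0.287 (control at 16 h and VWF at 3.5 h) to 0.407 (control and VWF at 3.5 h). The latter correlations ran from -0.41 to 0.684, against a median of -0.096 for cultures of different numbers. Among the class II genes, replicate 4 was the highest culture of every group for H2-Aa, H2-Ab1 and Cd74. Replicate 1 was the lowest of every 3.5 h group for these and for H2-Eb1. The main tests left the numbers out, and whether the numbers mark mice or days is not given in the sources used here. No 2 cultures were duplicates (chi-square per degree of freedom at least 17.1 over 52 pairs).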

Additional observations from a re-analysis of the deposited data

Results flagged for a closer look

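Of 42 sets (1 gene in 1 group of 4 or 5 cultures), 8 held a culture whose gap to its nearest neighbour took up an unusual share of the range. Chance marks about 1 in 20 independent sets, but these sets share cultures, so the 8 cannot be set against that rate. VWF 16 h replicate 4 was such a culture for 5 genes, always as the highest: H2-Aa (49.9 CPM), H2-Eb1 (24.8 CPM), Cd74 (354 CPM), H2-DMa (82.6 CPM) and H2-DMb1 (94.9 CPM). Control 16 h replicate 4 was the highest of its group for H2-Aa (26.1 CPM) and H2-Ab1 (33.2 CPM). LPS 16 h replicate 2 was the lowest of its group for Ciita (0.482 CPM).

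Treatment effects that differed between 3.5 and 16 h by the interaction test were those of LPS on H2-Eb1 (2.10 on the log2 scale, 16 h minus 3.5 h), H2-Ab1 (1.28) and H2-Aa (1.10), and those of VWF (-2.98) and LPS (-2.82) on Ciita. The difference between VWF and LPS changed for H2-Eb1 (-1.26).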

How the results depend on the processing

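Of 6 class II genes tested, 1 was called for VWF and 1 for LPS against control at 3.5 h. Both counts were 0 with library size scaling, and 2 with filterByExpr or no filter, where Ciita was also tested. For LPS at 3.5 h the count was 6 with no fold threshold. With no fold threshold it was 4 for VWF at 16 h, 6 for LPS at 16 h, 1 and 4 for VWF against LPS at 3.5 and 16 h, and 4, 3 and 2 over time in control, VWF and LPS cultures. The share of all genes called by adjusted p alone is not given here, and it is at least the share with the fold threshold. The counts with no fold threshold are therefore no result about the class II genes. Over time with VWF the number called was 1 with library size scaling, filterByExpr or no filter, and over time with LPS and for the change of the VWF effect 1 with filterByExpr or no filter. With 1 culture left out the counts ran from 0 to 1 for VWF and 0 to 3 for LPS at 3.5 h, 1 to 2 over time in controls, 0 to 1 over time with VWF and 0 to 1 for the change of the VWF effect. With the replicate block both counts at 3.5 h were 0. H2-Ab1 was then at 0.98 with VWF (adjusted p = 1.14e-04 by edgeR) and 1.00 with LPS (adjusted p = 3.57e-04), under the fold threshold. Cd74 with LPS at 16 h was called with the block (1.03). For VWF against LPS at 16 h, where every same-numbered pair correlated over 0.1, the block changed no call. Library size scaling reversed H2-DMb1 for VWF at 3.5 h (-0.20), H2-DMa and H2-DMb1 for LPS at 3.5 h (-0.14 and -0.14) and 16 h (-2.03e-04 and -0.026), H2-DMb1 for VWF against LPS at 16 h (0.18), H2-Ab1 for VWF against LPS at 3.5 h (0.28, and 0.038 with the replicate block) and over time with VWF (0.031), H2-Aa over time with LPS (-0.031, and -0.017 in 1 fit over all groups), Cd74 for the change of the VWF to LPS difference (0.16, and 0.045, 0.028 and 0.033 with filterByExpr, no filter and 1 fit), and Ciita for LPS at 16 h (-0.17) and VWF against LPS at 3.5 and 16 h (0.35 and 0.32). H2-DMa for VWF at 3.5 h was 0.0065 with filterByExpr, and Ciita for VWF against LPS at 3.5 h 0.0064 with no filter. With 1 culture left out the sign turned for uncalled values near 0, within -0.037 to 0.25 for the change of the LPS effect on Cd74, -0.091 to 0.26 for that of the VWF effect, -0.18 to 0.14 for the VWF to LPS difference, -0.16 to 0.17 for H2-Aa over time with LPS, -0.21 to 0.16 and -0.23 to 0.11 for H2-Ab1 in VWF against LPS at 3.5 h and over time with VWF, -0.13 to 0.051 and -0.099 to 0.22 for H2-DMa with VWF at 3.5 h and against LPS at 16 h, -0.040 to 0.11, -0.019 to 0.25 and -0.080 to 0.21 for H2-DMb1 with VWF at 3.5 h, the LPS effect and the difference, and for Ciita -0.16 to 0.16 in VWF against LPS at 3.5 h, -0.0016 to 0.69 over time in controls and -0.34 to 0.039 in the change of the difference. The cause of these changes was not tested. At 16 to 91 counts per control culture, the spread of Ciita limits its comparison at 16 h.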
